A study of Mus musculus with 9 samples.

Results

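The 10 genes described here are 8 natural killer (NK) cell receptors, Ncr1, Klrb1c, Klrk1, Klre1, Klrd1, Klrc1, Klri2 and Cd160, and the T-box transcription factors Eomes and Tbx21. They were taken from the files by symbol and are 10 of 55342 gene names measured in 9 libraries of polyadenylated RNA from mouse labial mucosa. The 3 strains were Tac111 (replicates 1, 2 and 3), Tac146 (replicates 2, 3 and 4) and B6 (replicates 1, 2 and 3). The labels call the mice of the series carriers of different mutations but name no allele for a strain, and every mouse was infected before biopsy. The sources used here give no agent, dose, interval or age. The cells of the Tac111 and Tac146 libraries are labelled T cells and those of the B6 libraries type 1 innate lymphoid cells (ILC1), so strain and labelled cell type cannot be told apart in either comparison with B6. Nothing in the labels says that each library came from its own animal, and p-values then measure the spread between these libraries, which may be technical.

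NK cells and ILC1 are lymphocytes that use germline-encoded receptors in place of rearranged antigen receptors. Activating receptors read stress-induced or microbial ligands and signal through adaptors, while inhibitory receptors read class I molecules on healthy cells and recruit phosphatases. T-bet, the product of Tbx21, is needed for ILC1 and takes part in NK cell maturation, and Eomes is held to mark NK cells more than tissue ILC1. Both lineages depend on signals through the receptor chains encoded by Il2rb and Il2rg.

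Total expected counts per library ran from 27192359 to 46456500. On principal components of all tested genes the Tac111 libraries stood apart on the first (42.3% of the variance), and Tac146 replicate 4 stood apart on the second (16.0%). Strain checks set the strains apart. Il2rg had 4, 3 and 4 expected counts in Tac111 libraries, 242, 131 and 166 in Tac146 libraries and 216, 148 and 145 in B6 libraries. Rag1, part of the antigen receptor recombinase, had 71, 59 and 75 in Tac146 libraries and no more than 3 in any other. Rag2, its partner, had 51, 47 and 75 in Tac111 libraries and 0 in the other 6. The 6 oral keratinocyte markers held 6.52 to 7.20% of the counts in Tac111 libraries, 7.09 to 9.13% in Tac146 libraries and 6.43 to 9.92% in B6 libraries. No library therefore held the labelled cells alone. The CD3 chains did not follow the labelled cell types. Cd3d, Cd3e and Cd3g, which define T cells, had together 0, 0 and 0 expected counts in the Tac111 libraries labelled T cells, 42, 23 and 19 in the Tac146 libraries labelled T cells, and 212, 105 and 132 in the B6 libraries labelled ILC1. The members together held 0.0000993 to 0.000150% of the counts in Tac111 libraries, 0.000446 to 0.000577% in Tac146 libraries and 0.000452 to 0.000514% in B6 libraries, so each value below rests on few reads.

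5 of the 10 genes lie in the NK gene complex of mouse chromosome 6 between Klre1 and Klri2 (GRCm38, 129577905 to 129740484), and Klrb1c lies in the same complex at 128778485 to 128789215. Ncr1 lies on chromosome 7 (4337724 to 4345164), Cd160 on chromosome 3 (96798763 to 96829351), Eomes on chromosome 9 (118478212 to 118486132) and Tbx21 on chromosome 11 (97098071 to 97115331). RefSeq promoter windows (GRCm38.p6, 250 bases upstream of an annotated start) were found for 8 of the 10 genes, in 11 entries. Klrd1 and Klri2 were not matched. The letters TGTGGT, the core bound by RUNX factors, or their reverse complement ACCACA stood in the windows of 6 of these 8 genes (Ncr1, Klrb1c, Klrk1, Klre1, Klrc1 and Cd160), in 8 of the 11 entries, of which the pairs for Ncr1 and for Klre1 overlap. The same letters stood in 14.0% of all 32851 windows of this length. The windows of Klrb1c and Klre1 overlapped annotated exons of the same gene, and the Cd160 window not printed below overlapped exons of Pdzk1. The T-box letters GGTGTGA or TCACACC stood in 1 of the 11 entries (Cd160) and in 3.33% of all windows, and the STAT letters TTCNNNGAA in 1 of the 11 (Cd160) and in 7.02%. The ETS letters CCGGAAGT or ACTTCCGG stood in none of the 11 and in 2.88% of all windows, and the letters TATAAA or TTTATA in 1 (Klrc1) and in 12.4%. The window of Eomes held none of the letters above. A match describes the letters and shows no binding, and whether the letters went with a change in RNA was not tested. 4 windows are printed 5′ to 3′ on the strand of the gene, 3 of receptors whose RNA was lower in Tac111 and, beside them, that of Tbx21, which held none of these letters. They are Ncr1 (chr7:4337465-4337714, plus strand), Klrk1 (chr6:129623865-129624114, minus strand), Cd160 at an internal start (chr3:96814522-96814771, minus strand) and Tbx21 (chr11:97115332-97115581, minus strand), with RUNX, T-box and STAT letters in capitals.
Ncr1: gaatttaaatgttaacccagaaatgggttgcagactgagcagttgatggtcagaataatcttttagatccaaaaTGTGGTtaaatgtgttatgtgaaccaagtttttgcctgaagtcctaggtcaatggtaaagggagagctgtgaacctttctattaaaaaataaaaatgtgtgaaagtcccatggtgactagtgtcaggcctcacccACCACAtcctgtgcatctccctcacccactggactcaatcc
Klrk1: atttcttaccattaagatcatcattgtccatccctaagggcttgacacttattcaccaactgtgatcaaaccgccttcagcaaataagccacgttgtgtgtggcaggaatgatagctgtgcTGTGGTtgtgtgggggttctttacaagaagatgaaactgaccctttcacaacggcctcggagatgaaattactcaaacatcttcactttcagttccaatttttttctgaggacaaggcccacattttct
Cd160: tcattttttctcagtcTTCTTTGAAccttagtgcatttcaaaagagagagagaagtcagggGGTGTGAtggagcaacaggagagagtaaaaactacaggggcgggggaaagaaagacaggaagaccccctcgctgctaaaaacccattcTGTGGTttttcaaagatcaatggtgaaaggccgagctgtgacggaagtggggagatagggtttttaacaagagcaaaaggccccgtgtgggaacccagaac
Tbx21: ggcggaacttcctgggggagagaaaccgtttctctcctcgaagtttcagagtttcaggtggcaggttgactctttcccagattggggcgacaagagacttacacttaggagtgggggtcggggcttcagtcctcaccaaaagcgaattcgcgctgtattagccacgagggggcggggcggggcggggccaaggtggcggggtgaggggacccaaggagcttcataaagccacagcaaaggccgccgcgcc

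Compared between genes per length (CPM per kb of annotated exon, CPM being counts scaled to a common library size), Klrd1 and Tbx21 led in every strain. In B6 libraries Klrd1 stood at 0.437 ± 0.0869 and Tbx21 at 0.425 ± 0.0478 CPM per kb (SD, n = 3 here and below), within each other's spread. Klrk1 (0.208 ± 0.0304), Ncr1 (0.206 ± 0.0929), Cd160 (0.157 ± 0.0640), Klrb1c (0.147 ± 0.0652) and Klrc1 (0.138 ± 0.0329) followed, with overlapping spreads between neighbours. Klri2 (0.0315 ± 0.0126), Klre1 (0.0118 ± 0.0149) and Eomes (0.00558 ± 0.00967) were lowest. In Tac111 libraries Tbx21 came first at 0.261 ± 0.0371 and Klrd1 next at 0.232 ± 0.158 CPM per kb, again within their spread, and Klrk1 followed at 0.0402 ± 0.00769. In Tac146 libraries Klrd1 led at 0.541 ± 0.0534 CPM per kb, and Tbx21 (0.310 ± 0.160), Ncr1 (0.252 ± 0.0439), Klrk1 (0.246 ± 0.0345) and Klrb1c (0.238 ± 0.0379) followed with overlapping spreads.

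**Figure D1:**
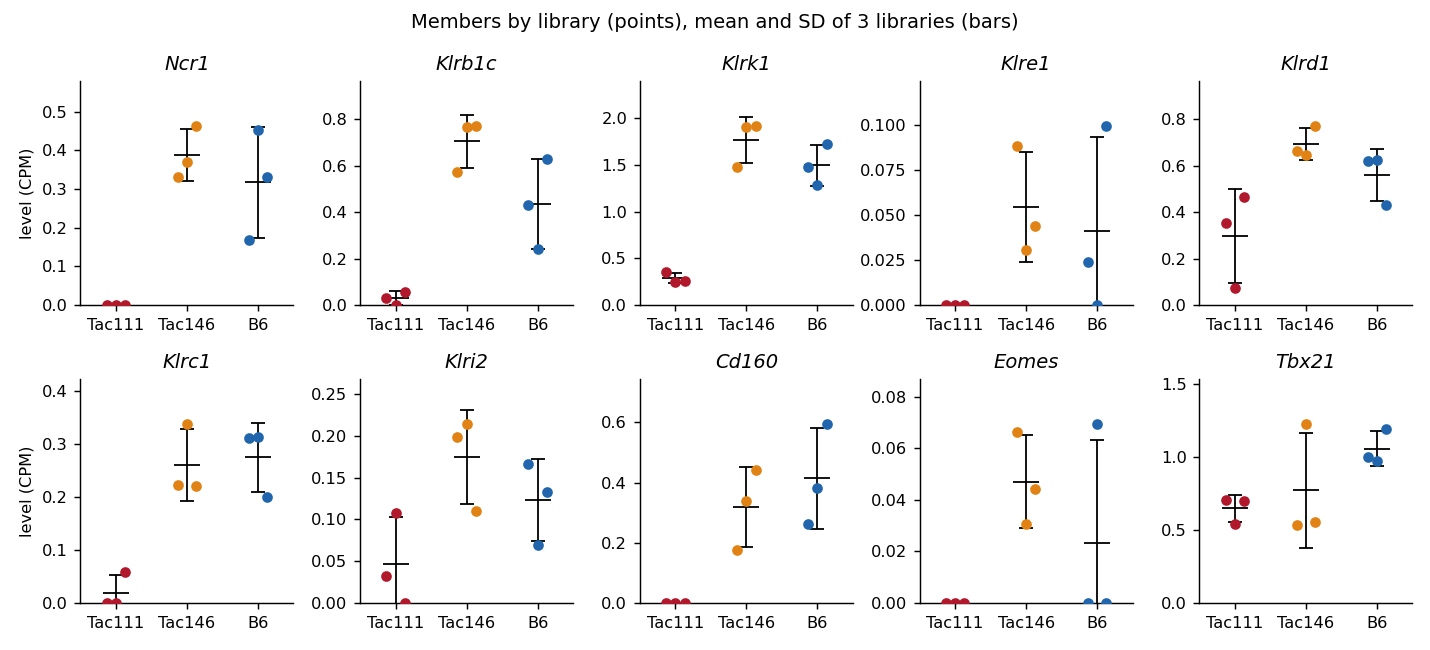
Level (CPM, vertical axes that differ between panels) of each of the 10 genes in each library, with 1 point per library, a long bar at the mean and short bars at 1 SD, for Tac111, Tac146 and B6 (n = 3 each). Ncr1, Klre1, Cd160 and Eomes were at 0 in every Tac111 library, while Tbx21 stayed between 0.542 and 0.705 CPM there.

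The activating and co-stimulatory receptors were lower in Tac111 than in B6. Klrk1 encodes NKG2D, which binds stress-induced relatives of class I molecules. It had 11, 7 and 9 expected counts in Tac111 libraries and 62, 37 and 52 in B6 libraries, that is 0.289 ± 0.0552 CPM in Tac111 and 1.5 ± 0.218 CPM in B6. The libraries did not overlap, and Klrk1 fell 5.12-fold in Tac111, a log2 fold change of -2.36 (SE 0.26, edgeR adjusted p = 0.000878). In bulk tissue, fewer cells of a type and less RNA per cell cannot be told apart. Ncr1 encodes NKp46, an activating receptor of NK cells and ILC1. It had 0, 0 and 0 expected counts in Tac111 libraries and 7, 13 and 10 in B6 libraries. It was at least 9.25-fold lower in Tac111, taking 3 counts over the 3 libraries as the limit that 0 allows (edgeR adjusted p = 0.0144). Such limits take the count of the higher strain as observed and allow for error in the 0 alone. The counting intervals below cover counting error alone.

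Cd160 encodes a receptor that binds the herpesvirus entry mediator HVEM. It had 0, 0 and 0 expected counts in Tac111 libraries and 11, 11 and 18 in B6 libraries, and was at least 12.3-fold lower in Tac111 (edgeR adjusted p = 0.0137). Klrb1c encodes NK1.1, the surface marker by which NK cells and ILC1 of B6 mice are often recognised. It had 1, 0 and 2 expected counts in Tac111 libraries and 18, 7 and 19 in B6 libraries, a 13.6-fold lower level per scaled library size in Tac111 (95% exact counting interval 4.35 to 68.3, edgeR adjusted p = 0.0122). No Tac111 library reached the lowest B6 library for any of these 4 genes. Reads of Klrb1c are less certain, since 17.0% of its 50-base stretches also occur in other annotated genes, chiefly Gm44511, which overlaps it on the same strand. Gm44511 had 0 to 0.740 expected counts in Tac111 libraries and 0 to 13.8 in B6 libraries. Cd160 overlaps Pdzk1 on the opposite strand, and the sources used here do not state the strand setting of the counting. Pdzk1 had 68, 108 and 114 expected counts in Tac111 libraries and 134, 58 and 92 in B6 libraries.

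The receptor of CD94 and NKG2A is built from the products of Klrd1 and Klrc1. Klrc1 encodes NKG2A, the inhibitory partner that joins CD94 to read Qa-1, the product of H2-T23. It had 0, 0 and 2 expected counts in Tac111 libraries and 13, 8.74 and 5.7 in B6 libraries, a 12.5-fold lower level in Tac111 (95% exact counting interval 3.14 to 108, edgeR adjusted p = 0.0311). The libraries did not overlap, but the call was lost without any 1 of Tac111 replicates 1 and 2 and B6 replicates 1, 2 and 3 (adjusted p over the alternatives 0.0226 to 0.112). Klrc2 shares most of the 38.6% of Klrc1 stretches of 50 bases found in other genes. It had 0, 0 and 0 expected counts in Tac111 libraries and 4, 4.26 and 1.3 in B6 libraries. Klrd1 encodes CD94 itself. It had 11, 2 and 16 expected counts in Tac111 libraries and 26, 18 and 13 in B6 libraries, and Tac111 replicate 3 (0.465 CPM) stood above B6 replicate 3 (0.431 CPM). Its log2 fold change was -0.87 (95% interval -1.88 to 0.14) and did not pass (edgeR adjusted p = 0.288). Whether Klrd1 and Klrc1 differed in their change was not tested.

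Klre1 and Klri2 encode lectin-like receptors reported to pair with each other in rodents. Klre1 had 0, 0 and 0 expected counts in Tac111 libraries and 1, 0 and 3 in B6 libraries, too few for a fold to be given. Klri2 had 1, 3 and 0 in Tac111 libraries and 7, 2 and 4 in B6 libraries. In both genes the libraries overlapped. With Eomes, these were the 3 members under the filter on low counts, and with no filter they did not pass either (edgeR adjusted p = 0.395 for Klre1, 0.507 for Klri2 and 0.581 for Eomes).

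Of the T-box factors, Tbx21 was the member with the most counts left in Tac111. It had 22, 15 and 24 expected counts in Tac111 libraries and 42, 28 and 36 in B6 libraries, 0.648 ± 0.0923 CPM in Tac111 and 1.06 ± 0.119 CPM in B6. The Tac111 libraries all lay below the B6 libraries. The log2 fold change was -0.69 (95% interval -1.46 to 0.07) and did not pass (edgeR adjusted p = 0.269). Eomes had 0, 0 and 0 expected counts in Tac111 libraries and 0, 2 and 0 in B6 libraries, so no fold is given. At this depth the B6 libraries, whose labels name ILC1, held Tbx21 in each library and Eomes reads in 1. Such low Eomes counts in tissue libraries cannot tell ILC1 from NK cells.

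In all, 5 of the 7 members tested fell in Tac111 against B6 (Ncr1, Klrb1c, Klrk1, Klrc1 and Cd160) and 0 rose, where edgeR called 3.81% of all 16523 genes tested, 2.8% lower and 1.02% higher. Ncr1, Klrb1c, Klrc1 and Cd160 passed the filter on low counts through the Tac146 and B6 libraries, so a tested member of this kind had to be lower in Tac111 and the share of 5 in 7 says no more than the single genes do. Of the 7 tested, 6 had all Tac111 libraries below all B6 libraries, against 15.8% of the genes tested, and the same limit holds for this share.

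Tac146 and B6 were set apart by none of these tests. Klrk1 had 67, 62 and 87 expected counts in Tac146 libraries and 62, 37 and 52 in B6 libraries, and the libraries overlapped (log2 fold change 0.24, 95% interval -0.23 to 0.70, edgeR adjusted p = 0.820). Ncr1 had 15, 12 and 21 in Tac146 libraries against 7, 13 and 10 in B6 libraries (log2 fold change 0.34, 95% interval -0.64 to 1.32). Klrb1c had 26, 25.3 and 35 in Tac146 libraries against 18, 7 and 19 in B6 libraries, with the highest upper bound among the members tested (log2 fold change 0.69, 95% interval -0.16 to 1.53, edgeR adjusted p = 0.769). The Tac146 replicate 2 level of Klrb1c, 0.575 CPM, was below that of B6 replicate 3, 0.630 CPM.

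Cd160 had 8, 11 and 20 expected counts in Tac146 libraries against 11, 11 and 18 in B6 libraries, and Klrc1 had 9.74, 10.5 and 9.62 against 13, 8.74 and 5.7. Klrd1 had 30, 21 and 35 in Tac146 libraries against 26, 18 and 13 in B6 libraries. It was the 1 member of the 7 tested whose Tac146 libraries all lay above the B6 libraries, where 6.36% of the genes tested did so. None lay below them throughout (6.29% of genes). The log2 fold change of Klrd1 was 0.31 (95% interval -0.58 to 1.19, edgeR adjusted p = 0.870). Klri2 had 9, 7 and 5 against 7, 2 and 4, Klre1 had 4, 1 and 2 against 1, 0 and 3, and Eomes had 3, 1 and 2 against 0, 2 and 0, overlapping each time. Of the 7 members tested, edgeR called 0, against 0.303% of all genes (0.109% lower and 0.194% higher), 0 had an unadjusted p under 0.05 and DESeq2 called 0. The 95% interval reached beyond 1 log2 unit on one side for each tested member but Klrk1, so the strains are not shown to be alike.

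Tbx21 was uneven among the Tac146 libraries. It had 24, 40 and 25 expected counts in Tac146 libraries against 42, 28 and 36 in B6 libraries, with Tac146 replicate 3 at 1.23 CPM, above all B6 libraries, and the other 2 Tac146 libraries at 0.531 and 0.551 CPM, below all of them. Its log2 fold change was -0.49 (95% interval -1.22 to 0.25, edgeR adjusted p = 0.783). Without Tac146 replicate 4, the library apart on the second component, edgeR again called 0 members, with log2 fold changes of -0.30 for Tbx21 and 0.22 for Klrd1.

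**Figure D2:**
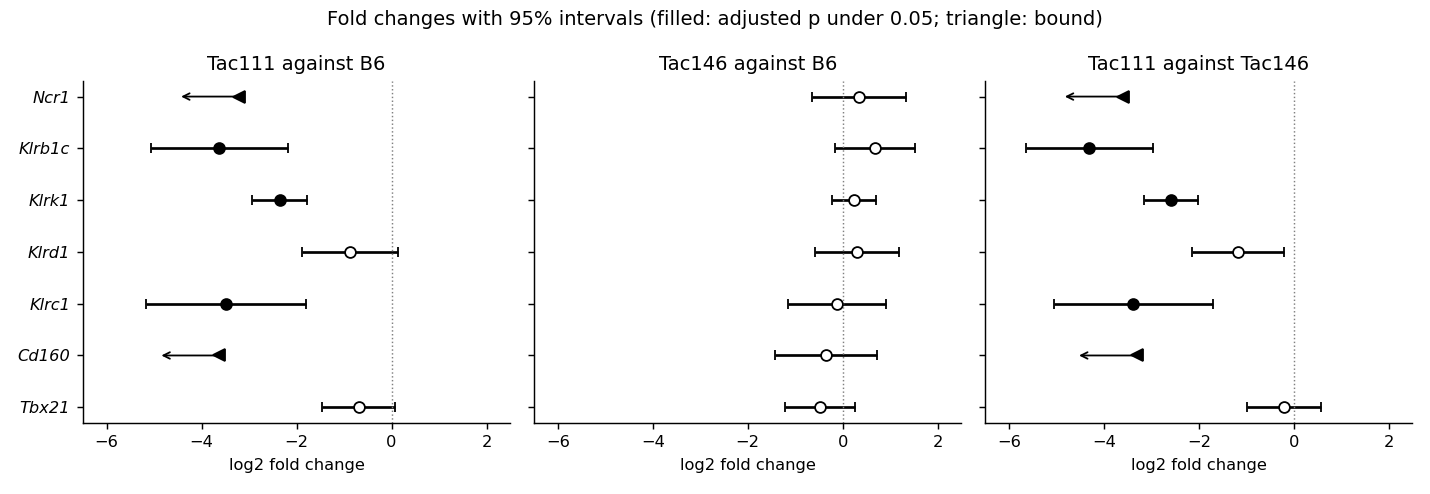
Log2 fold change (horizontal axis) of the 7 members tested in Tac111 against B6, Tac146 against B6 and Tac111 against Tac146, with 95% intervals of the edgeR fit. Filled marks passed the adjusted threshold of 0.05, triangles with arrows are bounds for genes at 0 in Tac111, and every Tac146 interval against B6 crosses 0.

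Between the strains whose labels both name T cells, the receptors were lower in Tac111. The values of each library are those given above. This comparison shares its Tac111 libraries with that against B6. Klrk1 fell 6.04-fold in Tac111 against Tac146, with a log2 change of -2.59 (SE 0.26, edgeR adjusted p = 0.000298). Klrb1c was 21.7-fold lower in Tac111 (95% exact counting interval 7.19 to 107, edgeR adjusted p = 0.00262). Ncr1 was at least 12.1-fold lower in Tac111 (edgeR adjusted p = 0.00742). Cd160 was at least 9.85-fold lower (edgeR adjusted p = 0.0164), a call lost without Tac111 replicate 3 (edgeR adjusted p = 0.0533, the highest over the alternatives, whose lowest was 0.000536). Klrc1 was 11.4-fold lower in Tac111 (95% exact counting interval 2.88 to 98.1, edgeR adjusted p = 0.0278), a call lost without Tac111 replicate 1 or 2 or Tac146 replicate 3 (adjusted p over the alternatives 0.0176 to 0.0919).

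Klrd1 lay lower in every Tac111 library than in any Tac146 library, with a log2 fold change of -1.18 (95% interval -2.15 to -0.21), but its edgeR adjusted p was 0.103. Tbx21 overlapped between the strains, at 0.648 ± 0.0923 CPM in Tac111 and 0.770 ± 0.397 CPM in Tac146 (log2 fold change -0.21, 95% interval -0.98 to 0.57, edgeR adjusted p = 0.716). Klre1 and Eomes had 0 counts in Tac111 and 7 or fewer over the Tac146 libraries, too few for a fold to be given. In total 5 of the 7 members tested fell and 0 rose, where edgeR called 8.89% of all genes, 6.27% lower and 2.62% higher. As against B6, Ncr1, Klrb1c, Klrc1 and Cd160 passed the filter through the other strains, and the share adds nothing to the single genes. Of the 7 members tested, 6 had all Tac111 libraries below all Tac146 libraries, against 18.4% of the genes tested, and Tbx21 was the exception. The same limit holds for this share. Klre1, Klri2 and Eomes, under the filter, lay below as well, on few counts. Klri2 reached 0.108 CPM in Tac111 and began at 0.110 CPM in Tac146.

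Ptprc, which encodes the leukocyte protein CD45, also fell in Tac111, so the members were set against it within each library. It had 140, 140 and 156 expected counts in Tac111 libraries, 565, 387 and 457 in Tac146 libraries and 460, 310 and 359 in B6 libraries, and the log2 fold change of Tac111 against B6 was -1.26 (SE 0.12, edgeR adjusted p = 0.000389). Klrk1 per Ptprc was 0.0786, 0.05 and 0.0577 in Tac111 libraries, 0.119, 0.160 and 0.190 in Tac146 libraries and 0.135, 0.119 and 0.145 in B6 libraries. All Tac111 libraries were below the others, so Klrk1 was lower relative to Ptprc as well. Tbx21 per Ptprc was 0.157, 0.107 and 0.154 in Tac111 libraries, 0.0425, 0.103 and 0.0547 in Tac146 libraries and 0.0913, 0.0903 and 0.1 in B6 libraries. Here all Tac111 libraries were above the others.

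Tbx21 per Klrk1 was 2.00, 2.14 and 2.67 in Tac111 libraries, 0.358, 0.645 and 0.287 in Tac146 libraries and 0.677, 0.757 and 0.692 in B6 libraries. The 3 strains did not overlap, with Tac111 highest and Tac146 lowest. These ratios do not depend on library scaling. They were chosen after the values were seen, and with 3 libraries against 3 a two-sided exact permutation test cannot give a p below 0.1. That value was reached for Tbx21 per Klrk1 in each pair of strains, and for Klrk1 per Ptprc and Tbx21 per Ptprc in Tac111 against either other strain (exact permutation p = 0.1, 0.167 adjusted over 15 ratios compared). The 10 members together per Ptprc were 0.329, 0.193 and 0.340 in Tac111 libraries, 0.346, 0.493 and 0.529 in Tac146 libraries and 0.407, 0.409 and 0.448 in B6 libraries. They were lower in Tac111 without overlap (exact permutation p = 0.1 against either other strain, 0.167 adjusted over 15 ratios compared). The gap to Tac146 was narrow, at 0.340 against 0.346, and Tbx21, a part of the sum, went the other way. The members were chosen with earlier results of these data known, so their sum says no more than the single genes do. Klrd1 per Klrk1 overlapped in every pair, with 1.00, 0.286 and 1.78 in Tac111 libraries, 0.448, 0.339 and 0.402 in Tac146 libraries and 0.419, 0.486 and 0.250 in B6 libraries.

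**Figure D3:**
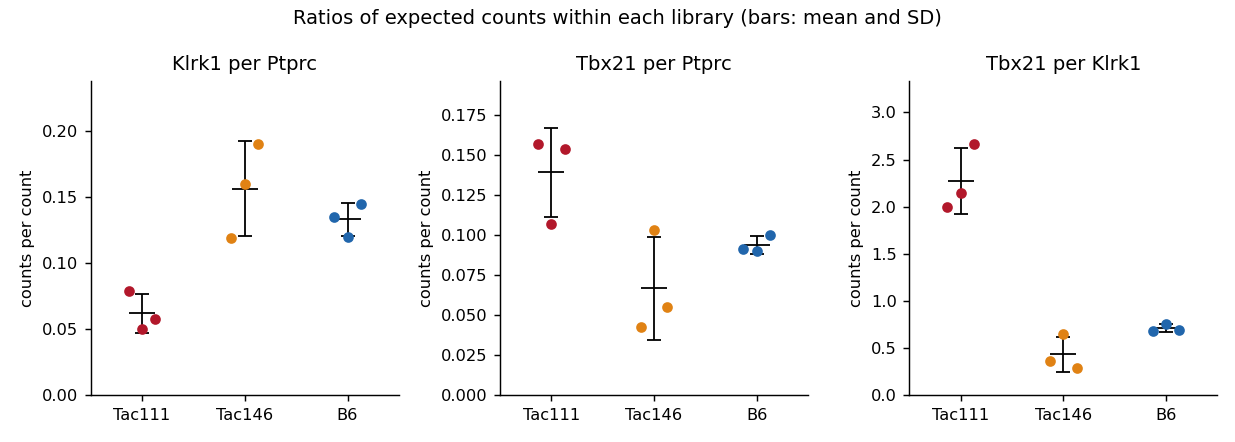
Ratios of expected counts within each library (vertical axes, counts per count) for Klrk1 per Ptprc, Tbx21 per Ptprc and Tbx21 per Klrk1, with 1 point per library, mean and SD, for Tac111, Tac146 and B6 (n = 3 each). Tac111 libraries lie lowest for Klrk1 per Ptprc and highest for both Tbx21 ratios, where Tbx21 per Klrk1 is 2.00 to 2.67.

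Genes of the same pathway were read from lists chosen with earlier results of these data known. Over all genes tested, the median log2 fold change in Tac111 against B6 was 0.02, in Tac146 against B6 0.01 and in Tac111 against Tac146 0.02. In the same order, edgeR called 2.8%, 0.109% and 6.27% of all genes tested lower. Listed genes near 0 in Tac111, such as Cxcr6 and Il2rb, passed the filter through the other strains. Counts of lists that hold such genes say no more than the single genes do. Of the other lectin-like receptors of the NK complex, 20 were in the files and 1 passed the filter. That was Klrb1b, an inhibitory relative of Klrb1c, at 1.03 ± 0.231 CPM in Tac111, 4.10 ± 0.533 in Tac146 and 3.43 ± 0.362 in B6, and Tac111 fell 3.32-fold below B6 on it (log2 -1.73, SE 0.21, edgeR adjusted p = 0.00124). Gm44511 overlaps Klrb1b too on the same strand, and Klrb1b shares 50-base stretches with Klrb1c, so its reads are also less certain. Of 18 other surface receptors of NK cells and ILC1 tested, 10 fell in Tac111 against B6 (list median -1.22), 0 were called in Tac146 against B6 and 9 fell in Tac111 against Tac146. Among them, Cd244a, which encodes the SLAM-family receptor 2B4, stood at 0.316 ± 0.0807 CPM in Tac111 and 1.49 ± 0.212 in B6. Cxcr6, a chemokine receptor of tissue lymphocytes, stood at 0.0889 ± 0.0482 CPM in Tac111 and 1.49 ± 0.486 in B6. The chains of the interleukin 18 receptor, Il18r1 and Il18rap, fell by 1.75 and 2.41 on the log2 scale in Tac111 against B6 (edgeR adjusted p = 0.00221 and 0.00790).

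Of 13 adaptors and signalling enzymes of these receptors tested, 4 fell in Tac111 against B6, namely the kinases Lck and Zap70, the exchange factor Vav1 and the phosphatase Inpp5d (list median -0.77). The number was 2 without Tac111 replicate 1 or 2 or B6 replicate 2 or 3. Of 15 ligands tested, 3 fell, namely B2m, H2-K1 and H2-D1, the light and heavy chains of classical class I molecules (list median -0.20). B2m stood at 116 ± 10.5 CPM in Tac111 and 333 ± 31.8 in B6, a log2 fold change of -1.53 (SE 0.10, edgeR adjusted p = 2.9e-05). H2-T23, which encodes the ligand of CD94 and NKG2A, stood at 65.8 ± 9.14 CPM in Tac111 and 88.3 ± 7.21 in B6 and just missed the threshold (edgeR adjusted p = 0.0535).

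Of 18 other transcription factors of ILC1 and NK cells tested, 4 fell in Tac111 against B6, namely Ets1, Irf8, Ikzf3 and Stat4 (list median -0.35). This count was between 0 and 1 without B6 replicate 2 or 3 or any 1 Tac111 library. Runx3, which encodes the RUNX factor most used by these cells, had 14, 18 and 6 expected counts in Tac111 libraries, 95, 38 and 76 in Tac146 libraries and 42, 32 and 54 in B6 libraries. The Tac111 libraries were lowest, and Runx3 fell against Tac146 (log2 fold change -1.99, edgeR adjusted p = 0.0211), a call lost without Tac111 replicate 1 or 3 and with the replicate number as a block, while against B6 it was -1.63 and did not pass (edgeR adjusted p = 0.0677).

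Of 6 type 1 effector genes tested, 5 fell in Tac111 against B6, with a list median of -7.28, or -5.37 with genes at 0 set at their bound. Gzmc, Xcl1, Nkg7 and Ctsw passed the filter through the Tac146 and B6 libraries, so this count and median say no more than the single genes do. Gzmc, which encodes a granzyme, had 0 expected counts in each Tac111 library, 283, 299 and 365 in Tac146 libraries and 187, 134 and 208 in B6 libraries, and was at least 163-fold lower in Tac111 than B6 (edgeR adjusted p = 7.24e-05). Xcl1, a chemokine that draws dendritic cells, and Nkg7, a protein of cytotoxic granules, were at 0 in each Tac111 library too, at least 35.8-fold and 47.5-fold lower than in B6. Ctsw, a protease of cytotoxic lymphocytes, had 0, 2 and 0 expected counts in Tac111 libraries and 69, 46 and 69 in B6 libraries. Of 14 cytokine signal genes tested, 4 fell, namely Il2rg, Il2rb, Il2ra and Il7r (list median -0.25). Il2rb had 1, 4 and 0 expected counts in Tac111 libraries, 137, 122 and 221 in Tac146 libraries and 125, 80 and 128 in B6 libraries. None of these lists had a gene called in Tac146 against B6 by edgeR, while DESeq2 called 1 adaptor. An unadjusted p under 0.05 was seen there for 2 adaptors, 2 ligands, 1 effector gene and 0 genes of the other lists of this pathway.

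The levels of markers of other cells were as follows. The 20 T cell markers summed to 87.6 to 98.0 CPM in Tac111 libraries, 94.7 to 106 in Tac146 libraries and 110.8 to 119.7 in B6 libraries. Cd3d, Cd3e and Cd3g gave 0 CPM of this in Tac111 libraries, 0.419 to 0.929 in Tac146 and 3.65 to 5.06 in B6. Most of each sum came from other genes of the list. Cd3d, Cd3e, Cd3g, Cd8a, Cd8b1 and Cd6 were at 0 in every Tac111 library, and Cd8b1 in every Tac146 library. Of 17 tested, 7 fell in Tac111 against B6, where 2.8% of all genes tested were called lower. In Tac146 against B6, 5 fell, namely Cd3d, Cd3e, Cd3g, Trac and Trdc, where 0.109% of all genes tested were called lower. Cd3d, Cd3e, Cd3g and Cd6 passed the filter through strains where they were higher, so these counts say no more than the single genes do. The count in Tac146 against B6 was 1 to 3 without any 1 of the 3 B6 libraries, the 3 Tac146 libraries or Tac111 replicate 3. Trdc, the constant segment of the delta chain of the T cell receptor, stood at 0.126 ± 0.0316 CPM in Tac146 and 1.16 ± 0.311 in B6, 8.83-fold lower in Tac146 (edgeR adjusted p = 0.00651). The 8 receptor genes summed to 3.74 to 4.74 CPM in the same Tac146 libraries and 3.37 to 4.14 CPM in the B6 libraries. The 13 macrophage and dendritic cell markers summed to 202.5 to 248.7 CPM in Tac111 libraries, 188 to 365 in Tac146 libraries and 284 to 337 in B6 libraries, with none at 0. Of 12 tested, 2 (Itgax and Cd207) fell in Tac111 against B6, or 4 without Tac146 replicate 4, where 2.8% of all genes were called lower. Against Tac146, 4 fell in Tac111 (Adgre1, Csf1r, Itgax and Cd207), where 6.27% of all genes were called lower. That count was 2 to 5 with each library left out.

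The 12 markers of group 2 and group 3 innate lymphoid cells summed to 170 to 176 CPM in Tac111 libraries, 222 to 241 in Tac146 libraries and 223 to 242 in B6 libraries. Rora alone stood at 130 ± 6.35 CPM in Tac111, 189 ± 9.65 in Tac146 and 190 ± 11.9 in B6. That gene made up most of each sum, so the sums say little about the other markers. Il13, Il22, Il17a and Ccr6 were at 0 in every Tac111 library. Over the B6 libraries they had 7, 2, 2 and 25 counts, so the zeros of Il22 and Il17a show no difference from B6. Of 7 tested, 2 (Rora and Ltb) fell against B6, where 2.8% of all genes tested were called lower. Il5 was not called, at 0.413 ± 0.133 CPM in Tac111 and 0.255 ± 0.147 in B6. Il17rb was not called either, at 0.999 ± 0.372 CPM in Tac111 and 1.37 ± 0.174 in B6. The 9 B cell markers summed to 1.03 CPM or less in every library, and none passed the filter. The 6 oral keratinocyte markers summed to 63930 to 75047 CPM in Tac111 libraries, 68920 to 93536 in Tac146 libraries and 62735 to 102695 in B6 libraries, and the 7 skeletal muscle markers to 23176 to 25849 in Tac111 libraries, 13385 to 21190 in Tac146 libraries and 22958 to 25935 in B6 libraries. In these 2 lists edgeR and DESeq2 called 0 genes in either comparison with B6, and the unadjusted p was under 0.05 for 2 muscle genes in Tac146 against B6. The part of these cells in the members' differences was not tested.

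**Figure D4:**
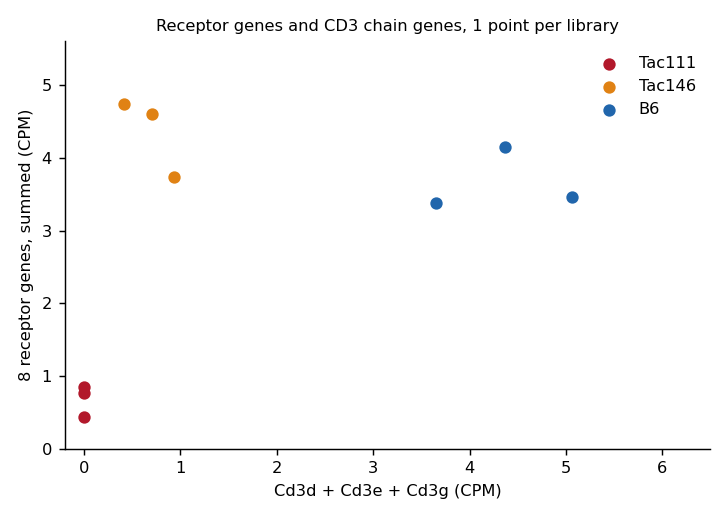
Sum of the 8 receptor genes (vertical axis, CPM) against the sum of Cd3d, Cd3e and Cd3g (horizontal axis, CPM), with 1 point per library of Tac111, Tac146 and B6 (n = 3 each). Tac111 libraries are low on both axes, and the Tac146 libraries lie at receptor sums of 3.74 to 4.74 CPM, near the B6 libraries at 3.37 to 4.14, with CD3 sums under 1 CPM.

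Among the 6 genes whose pattern over the 9 libraries lay nearest to the median profile of the members tested were Tcim, Parvg, Nf2, Pnrc2 and Il9r, of 14776 genes ranked. The measure was the mean absolute difference of centred log2(CPM + 0.5), which was 0.0558 for Tcim, 0.0768 for Parvg, 0.0774 for Nf2, 0.0805 for Pnrc2 and 0.0826 for Il9r. Among the members themselves it ran from 0.0773 for Ncr1 to 0.273 for Klrk1. The added 0.5 was above the mean B6 level of Ncr1, Klrb1c, Klrc1 and Cd160, so it shrank their falls. Nearness on this measure therefore does not mean a fold change of like size. Tcim, a regulator of transcription, stood at 13.2 ± 0.560 CPM in Tac111, 24.6 ± 1.18 in Tac146 and 21.6 ± 0.695 in B6. Il9r, the interleukin 9 receptor, was at 0 in every Tac111 library, with 0.294 ± 0.111 CPM in Tac146 and 0.287 ± 0.0439 CPM in B6. Nf2, the tumour suppressor merlin, stood at 63.3 ± 5.33 CPM in Tac111, 101 ± 3.59 in Tac146 and 102 ± 3.88 in B6.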

How the data were processed

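Biopsies of labial mucosa gave 9 libraries, prepared from polyadenylated RNA with a stranded kit, per the labels' protocols. The authors deposited 1 table per library with a symbol and an expected count for each gene, an estimate that is often not a whole number. The submitters' processing notes name STAR, RSEM and GRCm38, with no version, annotation or strand setting. Strain and replicate number come from the sample titles and strain labels. Among 55342 gene names, 107 had several lines, which were added up. Libraries of a strain differed beyond sampling noise (chi-square per degree of freedom 15.7 to 93.7), so none was merged.

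Rounded counts entered edgeR 4.0.16 in R 4.3.3, as a quasi-likelihood fit of the 9 libraries together with TMM factors, the tool's own filter, strain as the single factor and 6 residual degrees of freedom. Of all genes, 16523 passed the filter, and their p-values were adjusted together by Benjamini-Hochberg, with calls made at 0.05. Each SE is approximate, found from the log2 fold change and its F statistic. CPM use sizes scaled by TMM factors. Exon lengths and positions were looked up by symbol in GENCODE (GRCm38), which may not be the annotation used for counting, and promoters in RefSeq. A gene at 0 in a strain was bounded at 3 counts over its 3 libraries, with the count of the other strain taken as observed. Ratios of low counts carry exact 95% intervals. The fit was also run on simulated counts whose levels and spread were taken from these data. That check set no gene at 0 in a strain, and its outcome is not given.

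The 10 members and all other lists were chosen with earlier results of these data known. Named genes were the members, the strain checks, up to 4 genes per list with the smallest adjusted p and the 6 genes nearest in pattern, 1 of which is not reported here, and other genes named in a count of a list were named after their values were seen. Alternatives were DESeq2 1.42.0, median-ratio and upper-quartile factors, no filter, a filter of 1 CPM in 3 libraries, a fit of the 6 libraries compared, a replicate block and leaving out each library.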

Additional observations from a re-analysis of the deposited data

How the results depend on the processing

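The number of members called in Tac111 against B6 was 5, and it was 4 to 5 with each library left out, 5 with DESeq2, median-ratio factors, upper-quartile factors or no filter, and 1 with a filter of 1 CPM in 3 libraries or with the 6 libraries alone, which tested 2 and 3 members. In Tac111 against Tac146 it was 5, and 4 to 5 with each library left out, 1 with the 1 CPM filter and 3 with the 6 libraries alone, which tested 5. In Tac146 against B6 it was 0 under every alternative run. No named gene called in the fit reported or under an alternative changed its direction. Among members called in neither, the log2 fold change crossed 0 over the alternatives for Tbx21 in Tac111 against Tac146 (-0.41 to 0.26) and, in Tac146 against B6, for Ncr1 (-0.16 to 0.68), Klrc1 (-0.32 to 0.0091) and Cd160 (-0.94 to 0.0049). Calls of Ncr1, Klrb1c and Klrk1 were kept wherever they were tested (highest edgeR adjusted p 0.0479 in Tac111 against B6). Same-numbered libraries did not deviate together throughout (correlations -0.089 to 0.206), so the numbers were not taken as pairs. With the replicate block 4 members were called in Tac111 against B6, 0 in Tac146 against B6 and 4 in Tac111 against Tac146, the call lost being Klrc1 in both. In Tac146 against B6 the block called 0 T cell markers where 5 were called without it.

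Over all genes, Tac111 against B6 had 630 calls, 295 to 958 with each library left out, 1213 with DESeq2 and 1020 with no filter. Tac146 against B6 had 50 calls, 33 to 64 with each library left out, 136 with DESeq2, 129 with no filter and 26 with the 6 libraries alone. Tac111 against Tac146 had 1469 calls, 470 to 1829 with each library left out, 2677 with DESeq2, 641 with the 6 libraries alone and 632 with the block. The cause was not tested. In Tac111 against Tac146, skeletal muscle markers called were 0 in the fit reported, 5 by DESeq2, 4 by edgeR with no filter, 1 with the 1 CPM filter and 1 with upper-quartile factors. In the same comparison the block called 0 other transcription factors of the lineage, against 4. In Tac111 against B6, the 1 CPM filter gave 2 adaptors, 2 transcription factors, 1 T cell marker and 1 marker of group 2 and 3 cells, against 4, 4, 7 and 2, and DESeq2 gave 7 adaptors and 4 macrophage and dendritic cell markers, against 4 and 2. In Tac146 against B6, T cell markers called were 1 with that filter and 3 with the 6 libraries alone. Depth limited Klre1, Klri2 and Eomes, which had 21 or fewer counts over any strain.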
